A study of Mus musculus with 12 samples.

Results

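The question addressed here is whether dendritic cells labelled Ythdf1-/- changed their transcripts with tumour lysate as wild-type cells did, gene by gene. The 8 RNA-seq libraries of the series, of 12 samples in all, were used for it. They came from mouse dendritic cells grown from bone marrow with GM-CSF, a cytokine that drives myeloid growth. The 4 groups of 2 libraries each were wt cells alone, wt cells with tumour lysate, ythdf1-/- cells alone and ythdf1-/- cells with tumour lysate. Lysate means overnight culture with necrotic B16-OVA cells (a melanoma line of mice that carries ovalbumin), after which the dendritic cells were purified. No other allele or agent is named for any group, and the sources used here do not state the age or number of mice. The 4 RNA immunoprecipitation samples, 2 inputs and 2 precipitates, were not analysed here.

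YTHDF1 is a cytoplasmic protein that binds N6-methyladenosine on mRNA and is best known for promoting translation of the mRNAs it binds. Dendritic cells take up dying cells, degrade them in lysosomes and load the fragments on MHC molecules. They also keep a set of interferon-stimulated genes at a level set by low, constant interferon signalling. Marrow cultures with GM-CSF hold monocyte-derived cells and granulocytes beside dendritic cells, so a change in a bulk level can come from fewer cells of a type or from less RNA per cell, and these cannot be told apart.

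The quantity compared is the difference of the lysate effects, the lysate change in ythdf1-/- cells minus that in wt cells, on the deposited log2 scale. A value above 0 arises where ythdf1-/- cells rose more or fell less than wt cells. It is tested by 1 contrast of a limma fit to all 8 libraries over 11785 of the 11786 genes, with Benjamini-Hochberg adjustment and a threshold of 0.05. Errors given with ± are standard errors of that fit. Whether the paired libraries of each group stem from different mice or cultures is not stated, so each p-value reflects the spread among these samples alone, and that spread may be technical. No read counts were used, which leaves library depth unknown, and log2 values of this kind are pulled together for genes with few reads.

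The labels could be checked only in part. The level of Ythdf1 (Entrez 228994) was 9.58 and 9.43 in wt alone, 9.72 and 9.58 in wt with lysate, 9.53 and 9.43 in ythdf1-/- alone and 9.51 and 9.46 in ythdf1-/- with lysate. Without lysate the genotypes overlapped, with lysate both wt libraries were above both ythdf1-/- libraries, and the difference of the lysate effects was -0.13 ± 0.115 (adjusted p = 0.796). The transcript was thus not visibly reduced, which does not check the label where a changed transcript persists, and the genotype is called KO-labelled from here on. Of 25 conventional dendritic cell markers 23 were tested (Cd209a and Xcr1 were not analysed here), and their mean log2 level lay between 9.84 and 9.97 in all 8 libraries. That mean hides changes in both directions. Without lysate 6 of the 23 were higher and 6 lower in KO-labelled cells (7.02% and 9.23% of all genes). With lysate 2 rose and 6 fell in wild type (10.2% and 11.3%), and 3 rose and 6 fell in KO-labelled cells (8.28% and 6.92%). On the first principal component (49.7% of the variance) the 2 libraries of each group were neighbours, at 19.02 and 15.52 for wild type with lysate and at -19.69 and -13.73 for KO-labelled alone.

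Single genes differed between the genotypes in their response to lysate, among them the interferon-induced Irf7, Slfn4 and Siglec1, the complement genes C3 and Cfb, and Hspa1a and Hspa1b, which encode inducible HSP70. In all, 13 of 11785 genes passed the test of the difference (0.11%), all 13 with values above 0, from 0.61 to 1.13 on the log2 scale. At an adjusted p of 0.1 it was 21 (0.178%), again all above 0. Of the 13, 10 fell with lysate in wild type and did not pass the lysate test in KO-labelled cells: Apoa1, C3, Cfb, Hp, Hspa1a, Hspa1b, Ly6c1, Ly6c2, Ly6i and Trem1. Slfn4 and Siglec1 rose in KO-labelled cells and did not pass in wild type. Irf7 fell in wild type and rose in KO-labelled cells. Before lysate, all 13 were lower in KO-labelled than in wild-type cells by the test, against 9.23% of all genes. With lysate, 6 of the 13 were still lower (5.45% of all genes) and 0 were higher (7.44% of all genes). The gap between genotypes was smaller for all 13. Both genotype gaps enter the difference that chose these 13 genes, so these counts describe the calls and do not support them.

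**Figure D1:**
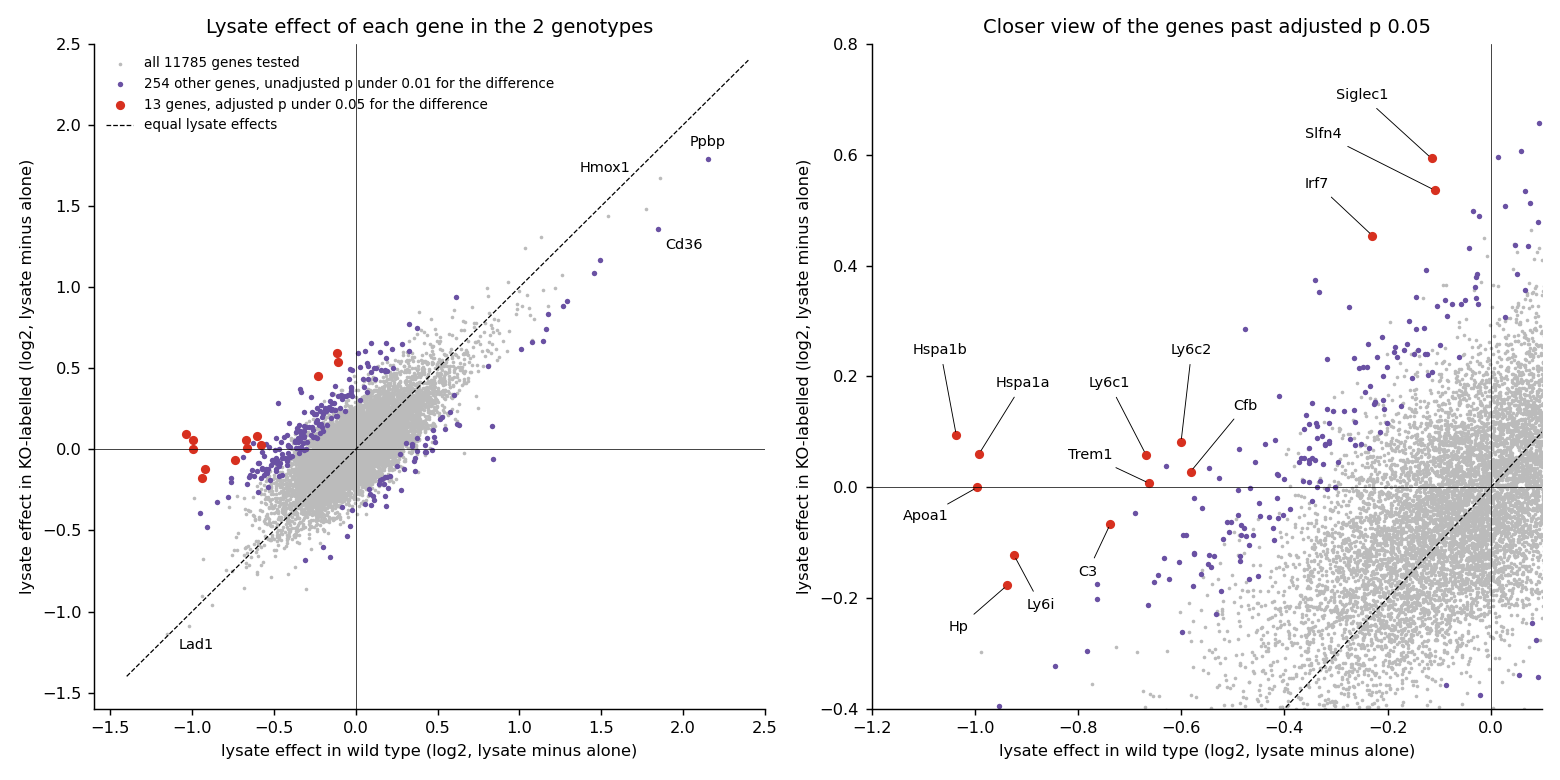
Lysate effect in KO-labelled cells (y axis, log2) against that in wild type (x axis, log2), 1 point per gene for the 11785 genes tested, with the whole range on the left and a closer view on the right. The 13 genes past adjusted p 0.05 for the difference (red) all lie above the dashed line of equal effects, while Ppbp and Cd36 lie below it.

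The number of calls, and whether all of them lay above 0, depended on single libraries. By the same limma test it was 0 without wild-type lysate replicate 1 (1010 genes at an unadjusted p under 0.05), KO-labelled lysate replicate 1 (553) or KO-labelled lysate replicate 2 (781), 2 when replicate 2 of wild type with lysate or replicate 1 of untreated wild type was left out, 4 when replicate 2 of untreated wild type was, and 32 when KO-labelled alone replicate 1 was. With each library's dependence on transcript GC content and length taken out it was 94 (77 above 0 and 17 below), with a filter at 6 it was 8, and without the mean-variance trend it was 1. The sign held for each of the 13 genes under every alternative that could be computed for it (17 for Apoa1 and 18 for each other gene). The 13 were chosen by their large differences in these same libraries, so a held sign does not support the calls.

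Of the interferon genes, Irf7 (Entrez 54123), the transcription factor that amplifies type I interferon responses, had the smallest p. Its log2 level was 12.03 and 12.17 in wild type alone, 11.83 and 11.91 in wild type with lysate, 11.41 and 11.33 in KO-labelled alone and 11.81 and 11.85 in KO-labelled with lysate. The untreated KO-labelled libraries lay below the other 6, and with lysate the genotypes overlapped. Irf7 fell by 0.23 ± 0.0708 in wild type (adjusted p = 0.0348) and rose by 0.45 ± 0.0708 in KO-labelled cells (adjusted p = 0.00104), a difference of 0.68 ± 0.1 (adjusted p = 0.026).

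Slfn4 (Entrez 20558), an interferon-induced Schlafen gene of myeloid cells, read 11.72 and 11.61 in wild type alone and 11.54 and 11.57 with lysate. In KO-labelled cells it read 10.84 and 10.88 alone and 11.44 and 11.35 with lysate, so only the untreated KO-labelled libraries were far below the others. The lysate effect was -0.11 ± 0.0679 in wild type and 0.54 ± 0.0679 in KO-labelled cells, a difference of 0.64 ± 0.096 (adjusted p = 0.026). Siglec1 (Entrez 20612), the sialic acid receptor CD169 and an interferon-induced surface marker, followed the same order. It read 10.58 and 10.71 in wild type alone, 10.60 and 10.46 in wild type with lysate, 9.85 and 9.63 in KO-labelled alone and 10.34 and 10.32 in KO-labelled with lysate. The difference was 0.71 ± 0.122 (adjusted p = 0.0481). Siglec1 stood just inside the threshold, and Ifit1bl1 just outside it (0.72 ± 0.126, adjusted p = 0.0572).

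**Figure D2:**
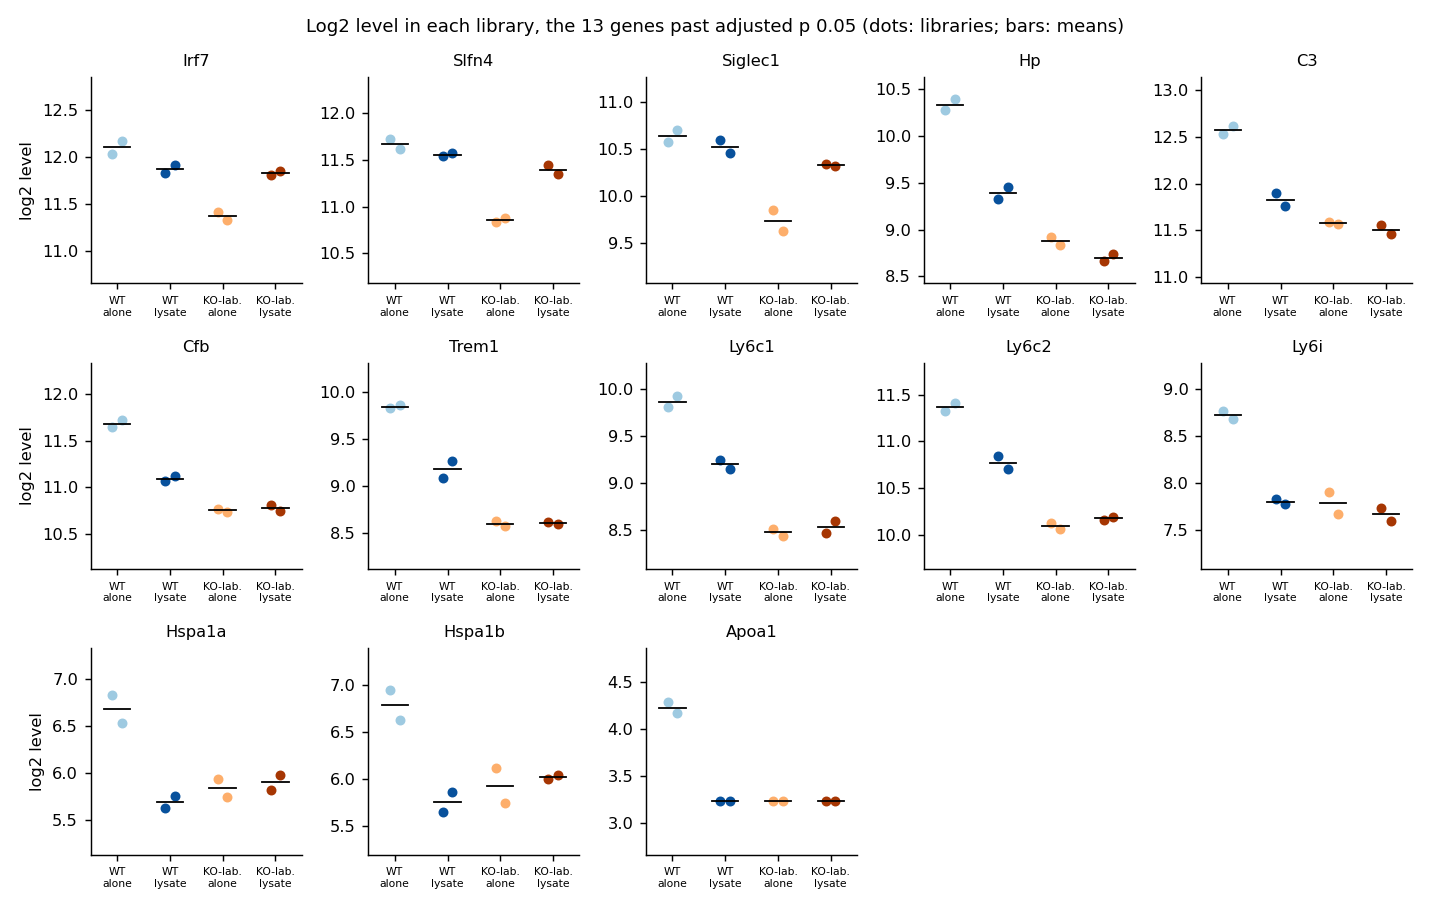
Log2 level in each of the 8 libraries (dots, 2 per group) with group means (bars) for the 13 genes whose lysate effects differed between genotypes, each panel spanning the same range of 2.2 log2 units on its own offset. Irf7, Slfn4 and Siglec1 are low in the untreated KO-labelled libraries, while the other 10 genes are highest in untreated wild type.

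Most of the wider interferon list had differences of the same sign without passing singly. Of 50 listed interferon-stimulated effectors 48 were tested, 45 had a difference above 0, and 26 were above 0 at an unadjusted p under 0.05, against 5.41% of all genes (2.9% were below 0 at that level). None of the 48 passed after adjustment over all genes by limma. The median difference was 0.25, beside 0.0009 over all genes, and lay between 0.20 and 0.28 under the alternatives. With lysate 37 of the 48 rose and 2 fell in KO-labelled cells (8.28% and 6.92% of all genes), and 15 rose and 6 fell in wild type (10.2% and 11.3%). Among the members with the smallest p were Oas2, which makes the activator of RNase L (difference 0.44 ± 0.0927), Oasl2 (0.39 ± 0.0864), a relative of it, and Ifitm3 (0.46 ± 0.102), which blocks viral entry. Without lysate 39 of the 48 were lower in KO-labelled cells and 2 were higher (9.23% and 7.02% of all genes).

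Related families were counted in the same way. Of 16 tested genes of the Schlafen and Ifi200 families 15 had a difference above 0 (50.3% of all genes). At an unadjusted p under 0.05, 9 were above 0 (5.41% of all genes), a count that depended on single libraries. The median was 0.27, and 0.17 to 0.35 under the alternatives. With lysate 14 of the 16 rose in KO-labelled cells and 7 in wild type (8.28% and 10.2% of all genes). Ifi208, a PYHIN family gene, read 9.07 and 8.94 in wild type alone, 9.16 and 9.03 with lysate, 8.38 and 8.43 in KO-labelled alone and 9.01 and 9.11 with lysate. Its difference was 0.56 ± 0.118 (adjusted p = 0.14), and only the untreated KO-labelled libraries were low. Of 16 guanylate-binding proteins and immunity-related GTPases, which attack the vacuoles of intracellular pathogens, 13 had a difference above 0. At an unadjusted p under 0.05, 7 were above 0 (5.41% of all genes), and this count also depended on single libraries. The median over the 16 was 0.22, and 0.16 to 0.26 under the alternatives. Tgtp2, one of these GTPases, rose in both genotypes, by 0.32 ± 0.0754 in wild type and by 0.78 ± 0.0754 in KO-labelled cells (difference 0.45 ± 0.107, adjusted p = 0.235). Gbp11 went the other way, with -0.16 ± 0.0902 in wild type and -0.66 ± 0.0902 in KO-labelled cells (difference -0.51 ± 0.128, adjusted p = 0.278).

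Of 18 tested transcription factors and receptors of the pathway 16 had a difference above 0, with a median of 0.11. At an unadjusted p under 0.05, 3 were above 0 (5.41% of all genes). Irf7 alone passed after adjustment. Stat2, which carries the type I interferon signal to the nucleus, rose by 0.36 ± 0.0645 in KO-labelled cells and had an effect of 0.07 ± 0.0645 in wild type (difference 0.29 ± 0.0913, adjusted p = 0.398).

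The 4 promoters below show where matches to an interferon-response motif lie. They were picked from the 8 that hold a match among genes with a difference above 0 at an unadjusted p under 0.01 and a lysate call in KO-labelled cells only, and none of the 4 genes passed the adjusted test of the difference. The windows are RefSeq's, build GRCm38.p6, from 250 bases before to 50 after each start, and 9426 of the 11785 genes tested had one. The interferon-stimulated response element was searched as GAAA, any 2 bases and GAAA again, on both strands, and matches are in capitals below (overlapping matches run together). Each line is read along the gene's own strand and stays upstream of the start. They are Ifi208 (chr1:173673562-173673661, plus strand), Oas3 (chr5:120777680-120777779, minus strand), Apol9b (chr15:77728990-77729071, plus strand) and Stat2 (chr10:128270248-128270330, plus strand).
Ifi208: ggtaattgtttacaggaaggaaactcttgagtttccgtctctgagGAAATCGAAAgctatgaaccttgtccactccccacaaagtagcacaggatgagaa
Oas3: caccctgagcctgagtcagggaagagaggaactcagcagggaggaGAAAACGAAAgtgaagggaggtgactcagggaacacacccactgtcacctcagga
Apol9b: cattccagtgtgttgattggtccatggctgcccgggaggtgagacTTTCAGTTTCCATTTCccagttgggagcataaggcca
Stat2: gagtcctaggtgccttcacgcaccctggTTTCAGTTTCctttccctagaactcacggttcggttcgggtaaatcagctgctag

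A match was held by 3.9% of all genes tested that had a window. Of the 47 genes with a difference above 0 at an unadjusted p under 0.01 and a lysate call in KO-labelled cells only, 30 had a window and 8 held a match (26.7%). Of the 114 with a difference above 0 and a lysate call in wild type only, 82 had a window and 7 held one (8.54%). Among the 54 genes with a window and a difference below 0, 1 held one (1.85%). Of the 13 genes past the adjusted threshold 9 had a window and 0 held these letters. Oas3, chosen after its values were seen and with its match 75 bases before the start site, had a lysate effect of -0.03 in wild type and 0.39 in KO-labelled cells. Apol9b, an interferon-induced apolipoprotein L gene chosen in the same way, had -0.08 and 0.31. Matches are descriptions of these windows and were not tested as sites.

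C3, Cfb and Hp fell with lysate in wild type, and before lysate they were lower in KO-labelled cells. C3 (Entrez 12266), the central complement protein, read 12.53 and 12.61 in wild type alone, 11.90 and 11.76 in wild type with lysate, 11.59 and 11.57 in KO-labelled alone and 11.56 and 11.46 in KO-labelled with lysate. Untreated wild type was above all other libraries, and both wild-type groups were above both KO-labelled groups. C3 fell by 0.74 ± 0.0711 in wild type (adjusted p = 2.11e-05), and its effect in KO-labelled cells was -0.07 ± 0.0711 (difference 0.67 ± 0.101, adjusted p = 0.026).

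Cfb (Entrez 14962), complement factor B, the protease of the alternative pathway, had the same order of groups. It read 11.64 and 11.72 in wild type alone, 11.07 and 11.12 with lysate, 10.77 and 10.74 in KO-labelled alone and 10.81 and 10.75 with lysate (difference 0.61 ± 0.0931, adjusted p = 0.026). Hp (Entrez 15439), haptoglobin, which binds free haemoglobin and is stored in neutrophil granules, read 10.27 and 10.39 in wild type alone and 9.33 and 9.45 with lysate. In KO-labelled cells it read 8.92 and 8.84 alone and 8.66 and 8.74 with lysate. Hp fell by 0.94 ± 0.0793 in wild type, and its effect in KO-labelled cells was -0.18 ± 0.0793 (difference 0.76 ± 0.112, adjusted p = 0.026).

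Ly6c1, Ly6c2, Ly6i and Trem1 encode surface proteins of monocytes and neutrophils and also fell with lysate in wild type. Ly6c2 (Entrez 100041546), the antigen that marks inflammatory monocytes, read 11.33 and 11.41 in wild type alone, 10.84 and 10.71 with lysate, 10.13 and 10.07 in KO-labelled alone and 10.16 and 10.20 with lysate. It fell 1.52-fold in wild type, and its effect in KO-labelled cells was 0.08 ± 0.0717 (difference 0.68 ± 0.101, adjusted p = 0.026). Its close copy Ly6c1 had a difference of 0.73 ± 0.116 (adjusted p = 0.0341) and the relative Ly6i 0.80 ± 0.136 (adjusted p = 0.0481), and the counting could have shared reads among them. Trem1 (Entrez 58217), an activating receptor of neutrophils and monocytes, read 9.83 and 9.86 in wild type alone, 9.09 and 9.27 with lysate, 8.63 and 8.57 in KO-labelled alone and 8.62 and 8.60 with lysate (difference 0.67 ± 0.114, adjusted p = 0.0481). The KO-labelled groups overlapped, while the wild-type groups did not.

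Of the marker lists of other myeloid cells, the neutrophil mean was lower with lysate in wild type, and the neutrophil, macrophage and eosinophil means were lower in all KO-labelled than in all wild-type libraries. Of 36 listed neutrophil genes 33 were tested, and without lysate 29 of them were lower and 0 higher in KO-labelled than in wild-type cells (9.23% and 7.02% of all genes). The mean log2 level of the list was 9.47 to 9.52 in wild type alone, 9.30 to 9.35 in wild type with lysate, 8.55 in both KO-labelled libraries alone and 8.57 to 8.59 in KO-labelled with lysate. With lysate 11 of the 33 fell and 3 rose in wild type (11.3% and 10.2% of all genes), and 3 fell and 6 rose in KO-labelled cells (6.92% and 8.28%). Ly6g and Ctsg were not analysed here. For 25 macrophage and monocyte genes the mean level was 11.04 to 11.05 in wild type alone, at most 11.05 with lysate, 10.66 to 10.67 in KO-labelled alone and 10.74 to 10.79 with lysate. For 5 tested eosinophil genes it was 6.51 to 6.57, 6.39 to 6.53, 5.85 to 5.87 and 5.97 to 6.03 in the same order. The part of these cells in the results for Hp, Trem1, Ly6c2, C3 and the interferon genes was not tested.

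Within the marker lists the difference of the lysate effects was above 0 for 26 of 33 neutrophil genes (50.3% of all genes), with a median of 0.24. At an unadjusted p under 0.05, 12 were above 0 and 1 below (5.41% and 2.9% of all genes). Hp and Trem1 are the members past adjustment. The 1 member below 0 at that level was Mpo, myeloperoxidase of early granules, with 0.11 ± 0.0842 in wild type and -0.32 ± 0.0842 in KO-labelled cells (difference -0.43 ± 0.119, adjusted p = 0.333). Chil3, a chitinase-like protein of myeloid cells, had -0.12 ± 0.0704 and 0.20 ± 0.0704. Of the 25 macrophage and monocyte genes 15 were above 0 (median 0.03). At an unadjusted p under 0.05, 9 were above 0 and 2 below (5.41% and 2.9% of all genes). Cd14, the co-receptor for lipopolysaccharide, fell by 0.54 ± 0.0694 in wild type, and its effect in KO-labelled cells was -0.14 ± 0.0694 (difference 0.40 ± 0.0981, adjusted p = 0.272). Vcan, the matrix proteoglycan versican of monocytes, had a difference of 0.43 ± 0.113 (adjusted p = 0.304).

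**Figure D3:**
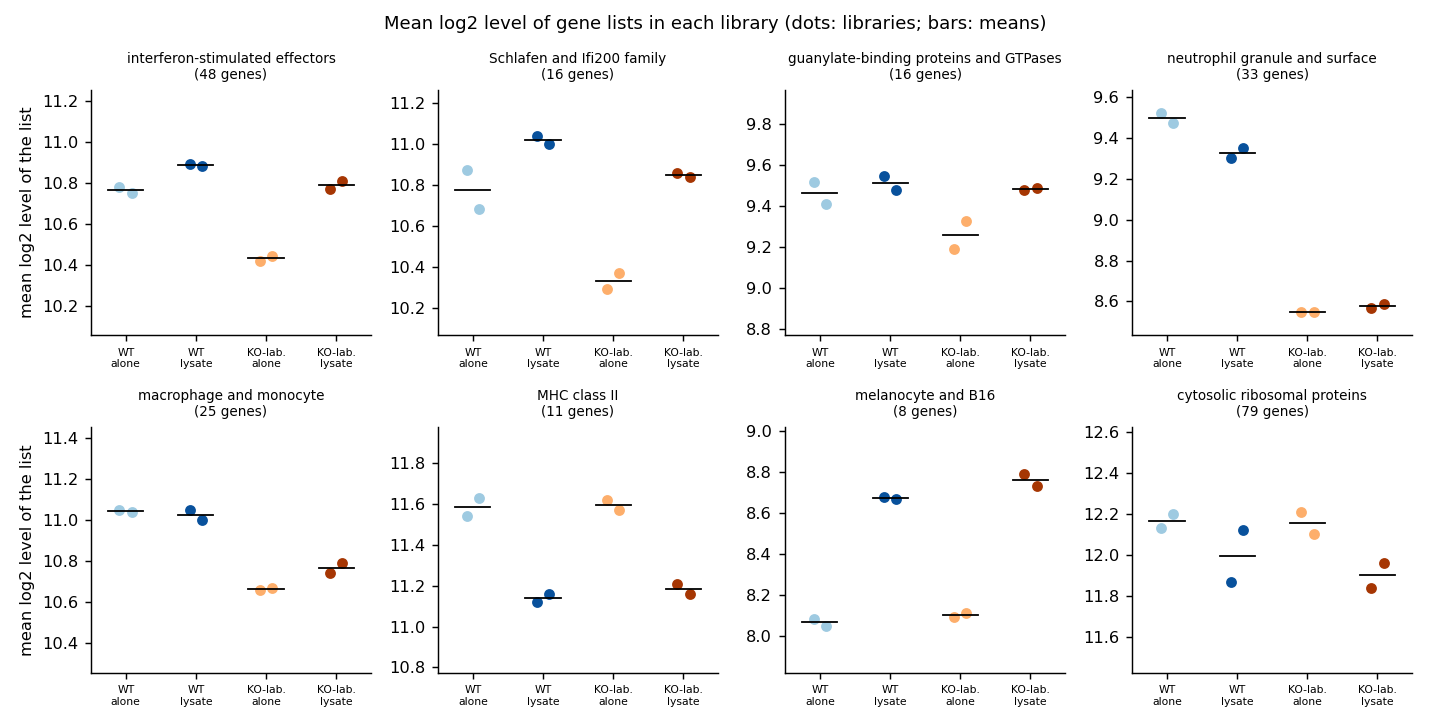
Mean log2 level of 8 gene lists in each library (dots, 2 per group) with group means (bars), each panel spanning 1.2 log2 units. The interferon-stimulated effectors are lowest in untreated KO-labelled libraries (10.42 and 10.44), the neutrophil list is low in all 4 KO-labelled libraries, and the melanocyte list is higher with lysate in both genotypes.

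Further genes stood outside the threshold. Il1b, the cytokine interleukin 1 beta, read 11.30 and 11.21 in wild type alone, 10.82 in both wild-type libraries with lysate, 10.45 and 10.36 in KO-labelled alone and 10.50 and 10.47 with lysate (difference 0.52 ± 0.0963, adjusted p = 0.0753). Nlrp3, the inflammasome sensor that leads to interleukin 1 beta release, had a difference of 0.45 ± 0.0926 (adjusted p = 0.132). Cybb, the catalytic subunit of the phagosomal NADPH oxidase, fell by 0.49 ± 0.0649 in wild type, with -0.01 ± 0.0649 in KO-labelled cells (difference 0.48 ± 0.0918, adjusted p = 0.0804). Ly6a, an interferon-inducible surface protein chosen after its values were seen, read 10.49 and 10.60 in wild type alone, 10.08 and 10.18 with lysate, 10.30 and 10.16 in KO-labelled alone and 10.37 and 10.42 with lysate. Wild type was thus the lower genotype with lysate (difference 0.57, adjusted p = 0.0753). Over 34 tested NF-kB targets 26 had a difference above 0 (50.3% of all genes), and the median was 0.09. At an unadjusted p under 0.05, 5 were above 0 (5.41% of all genes).

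Immediate early genes, which are transcribed within minutes of a stimulus, had 22 of 24 differences above 0 and a median of 0.13. At an unadjusted p under 0.05, 9 were above 0 (5.41% of all genes). With lysate 8 of the 24 fell and 3 rose in wild type (11.3% and 10.2% of all genes), the rises near the share of all genes. In KO-labelled cells 0 fell and 6 rose (6.92% and 8.28% of all genes). Nr4a1, an orphan nuclear receptor of this class, read 10.71 and 10.80 in wild type alone and 9.96 and 10.02 with lysate. In KO-labelled cells it read 10.28 and 10.12 alone and 10.01 and 10.04 with lysate, so the lysate groups of both genotypes overlapped (difference 0.59 ± 0.106, adjusted p = 0.0643).

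Heat shock genes gave the 2 largest differences. Hspa1a (Entrez 193740) read 6.83 and 6.53 in wild type alone, 5.63 and 5.75 with lysate, 5.94 and 5.74 in KO-labelled alone and 5.82 and 5.98 with lysate. Its near-identical copy Hspa1b (Entrez 15511) read 6.94 and 6.63, 5.64 and 5.86, 6.11 and 5.74, and 6.0 and 6.04 in the same order. Both encode inducible HSP70, and their reads cannot be separated with certainty, so they count as 1 observation. Only untreated wild type was high, with lysate effects of -0.99 ± 0.114 and -1.04 ± 0.131 in wild type and 0.06 ± 0.114 and 0.09 ± 0.131 in KO-labelled cells. The difference was 1.05 ± 0.162 for Hspa1a (adjusted p = 0.026) and 1.13 ± 0.186 for Hspa1b (adjusted p = 0.0416). The remaining chaperones did not follow. Of 19 tested heat shock chaperones 16 had a difference below 0, and the median was -0.12, with -0.15 to -0.08 under the alternatives. At an unadjusted p under 0.05, 5 were below 0 (2.9% of all genes), a count that depended on single libraries. Hsp90aa1, the inducible HSP90, rose by 0.34 ± 0.0715 in wild type, with 0.07 ± 0.0715 in KO-labelled cells (difference -0.27 ± 0.101, adjusted p = 0.471).

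Apoa1 (Entrez 11806), the main protein of high density lipoprotein, is a case apart among the 13. It read 4.29 and 4.17 in wild type alone and 3.24 in each of the other 6 libraries, the lowest value of the table. It passed the filter on low values only through untreated wild type, the group where it was high, so it had to differ, and its call supports nothing. The fitted difference of 0.99 ± 0.108 (adjusted p = 0.00467) is set by the floor of the scale and is no measure of its size.

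The 5 genes with lysate calls of opposite sign all fell in wild type and rose in KO-labelled cells (0.0424% of genes). They were Irf7, Ifit1bl1, Ifitm3, Fry and Tgm2. Ifit1bl1, of the antiviral IFIT family, read 8.64 and 8.53 in wild type alone, 8.29 and 8.2 with lysate, 7.63 and 7.78 in KO-labelled alone and 8.03 and 8.12 with lysate. Fry, a microtubule-associated protein, had effects of -0.33 ± 0.0889 and 0.35 ± 0.0889 (difference 0.69 ± 0.126, adjusted p = 0.0731). Tgm2, transglutaminase 2, was chosen after its values were seen and had -0.25 in wild type and 0.22 in KO-labelled cells (adjusted p = 0.108 for the difference). In each of the 5 the genotypes lay further apart alone than with lysate.

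Calls in 1 genotype only were far more frequent than tested differences. With lysate 1397 genes passed in wild type only (11.9% of those tested), and the difference passed for 10 of them. In KO-labelled cells only, 655 passed (5.56%), and the difference passed for 2. For the remainder of both classes a response in 1 genotype only was not shown. Of the 1132 genes called in both in the same direction (9.61%), 0 passed the test of the difference by limma, and 79 had an unadjusted p under 0.05 (8.32% of all genes had). The remaining 8596 (72.9%) were called in neither, apart from the 5 of opposite sign.

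At an unadjusted p under 0.01 the difference was found for 267 genes (2.27%), 203 above 0 (1.72%) and 64 below (0.543%). With the dependence on GC content and length taken out the split was 312 to 170. The 203 had a median lysate effect of -0.32 in wild type and 0.10 in KO-labelled cells. Of them 114 were called with lysate in wild type only and 47 in KO-labelled cells only (11.9% and 5.56% of all genes). All 114 had fallen in wild type, and all 47 had risen in KO-labelled cells. Without lysate 162 of the 203 were lower in KO-labelled cells, and with lysate 35 were (9.23% and 5.45% of all genes). The median genotype gap of the 203 was -0.46 alone and -0.04 with lysate. Megf11, an EGF-repeat protein among the 10 highest values, had -0.48 ± 0.0991 in wild type and 0.28 ± 0.0991 in KO-labelled cells (adjusted p = 0.0731). These classes take their calls from the libraries that also give the difference, so their counts describe it and do not support it.

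The 64 genes with values below 0 had a median lysate effect of 0.36 in wild type and -0.02 in KO-labelled cells, and none passed after adjustment by limma. With lysate 27 of the 64 were lower in KO-labelled than in wild-type cells (5.45% of all genes). Alone, 13 of the 64 passed the test of genotype (16.2% of all genes), and 0 of them were lower (9.23% of all genes). The 64 were chosen by the difference, so these counts describe it and do not support it. Cck, which encodes the peptide cholecystokinin, rose in wild type. It read 5.97 and 6.10 in wild type alone, 6.90 and 6.85 with lysate, 6.42 and 6.15 in KO-labelled alone and 6.32 and 6.54 with lysate. The wild-type groups did not overlap and the KO-labelled groups did (difference -0.69 ± 0.155, adjusted p = 0.2).

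Gas6, the bridging ligand that links phosphatidylserine on dying cells to TAM receptors, rose by 0.37 ± 0.0788 in wild type, with -0.13 ± 0.0788 in KO-labelled cells. It read 8.27 and 8.38 in wild type alone, 8.68 and 8.70 with lysate, 8.95 and 8.88 in KO-labelled alone and 8.75 and 8.82 with lysate (difference -0.50 ± 0.111, adjusted p = 0.2). Here untreated KO-labelled cells were already above both wild-type groups. Eef1e1, a scaffold protein of the tRNA synthetase complex, had 0.63 ± 0.0894 and 0.15 ± 0.0894 (adjusted p = 0.289 for the difference). The 10 lowest values also took in Bex3 (-0.54), Lamp3 (-0.53), Gbp11 (-0.51), Cd36 (-0.49), Pf4 (-0.48), Ppp1r26 (-0.48) and Rn4.5s (-0.90 ± 0.268), the last with 5.08 and 4.22 in its wild-type lysate libraries.

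Most genes that lysate raised strongly had a larger value in wild type, though no single difference passed. To choose such genes without using the difference, the average lysate effect of both genotypes was taken, whose estimate is uncorrelated with that of the difference in this balanced design under equal variances. An average rise of at least 0.5 was found for 200 genes, with a median effect of 0.66 in wild type and 0.60 in KO-labelled cells. The rise was larger in wild type, a difference below 0, for 136 of them (68.0%), 26 at an unadjusted p under 0.05. It was larger in KO-labelled cells, a difference above 0, for 64, 9 at that level. Over all genes 50.3% had a difference above 0. None of the 200 passed after adjustment by limma. For 152 of the 200 the 95% interval of the difference lay within 0.5 of 0 on either side. Of 87 genes with an average fall of at least 0.5, 46 fell further in wild type (52.9%), 11 at an unadjusted p under 0.05. In KO-labelled cells 41 fell further, 2 at that level. After adjustment by limma 2 passed, Hp and Ly6i.

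The platelet chemokines Ppbp and Pf4 rose in both genotypes. Ppbp (Entrez 57349), which encodes the neutrophil attractant CXCL7, read 9.30 and 9.28 in wild type alone, 11.44 and 11.45 with lysate, 9.35 in both KO-labelled libraries alone and 11.12 and 11.16 with lysate. The KO-labelled libraries lay above the wild-type ones alone and below them with lysate (difference -0.36 ± 0.0919, 95% interval -0.56 to -0.16, adjusted p = 0.282). Pf4 (Entrez 56744), which encodes CXCL4, read 11.99 and 12.09, 13.04 and 13.33, 12.45 and 12.41, and 13.06 and 13.14 in the same order. For Pf4 the genotypes differed alone and overlapped with lysate (difference -0.48 ± 0.121, adjusted p = 0.282).

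Other genes with large rises or small p are named here. Cd36 (Entrez 12491), a receptor for oxidised lipid and dying cells, read 12.31 and 12.09 in wild type alone, a mean of 14.05 over both libraries with lysate, 12.34 and 12.63 in KO-labelled alone and 13.79 and 13.89 with lysate (difference -0.49 ± 0.136, adjusted p = 0.333). Lgals1, which encodes the secreted lectin galectin 1, rose by 1.08 ± 0.0708 and 0.66 ± 0.0708 (difference -0.41 ± 0.1, adjusted p = 0.255). Ctsl, the lysosomal protease cathepsin L, had a difference of -0.33 ± 0.0941, Atp6v0d2, a proton pump subunit, -0.39 ± 0.112, Pdpn, the mucin podoplanin, -0.37 ± 0.103, and Emp1, a tetraspan membrane protein, -0.38 ± 0.109. Each of these rose in both genotypes, and none of the differences passed after adjustment (adjusted p = 0.336 for Pdpn and 0.337 for each of the other 3). Hmox1, haem oxygenase 1, rose by 1.86 ± 0.0717 and 1.68 ± 0.0717 (95% interval of the difference -0.40 to 0.04), Arg1, arginase 1, by 1.78 ± 0.107 and 1.48 ± 0.107 (-0.62 to 0.03), and Rgl1 by 1.26 ± 0.0754 and 1.07 ± 0.0754 (-0.42 to 0.04).

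**Figure D4:**
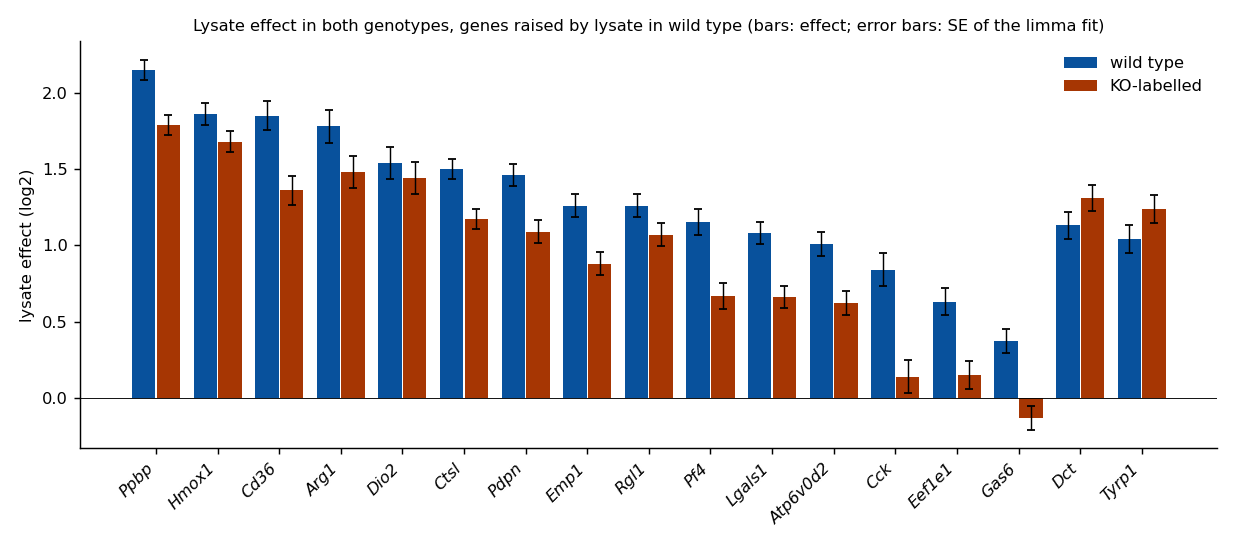
Lysate effect (y axis, log2) in wild type and KO-labelled cells for 17 genes raised in wild type, as bars from 0 with standard errors of the limma fit. The bars of KO-labelled cells are lower for all genes shown but the pigment cell genes Dct and Tyrp1, with the widest gap for Cck (0.84 against 0.14). Cck, Eef1e1, Gas6, Pf4 and Cd36 are among the 10 lowest values of the difference, and other genes were named for a small p. For genes named in this way a lower KO-labelled bar follows from the choice.

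Pigment cell transcripts, which the added melanoma cells carry, rose in both genotypes. Of 17 listed melanocyte genes 8 were tested, and 7 rose and 1 fell with lysate in each genotype. Over all genes 10.2% rose and 11.3% fell in wild type, and 8.28% rose and 6.92% fell in KO-labelled cells. None of the 8 had a difference at an unadjusted p under 0.05. The mean log2 level of the list was 8.05 to 8.08 in wild type alone, 8.67 to 8.68 with lysate, 8.09 to 8.11 in KO-labelled alone and 8.73 to 8.79 with lysate. Dct, a melanin synthesis enzyme, read 5.80 and 5.95 in wild type with lysate and 6.20 and 6.13 in KO-labelled with lysate, and the 95% interval of its difference was -0.08 to 0.45. For Tyrp1, a further enzyme of the pathway, the interval was -0.07 to 0.49. With lysate both were higher in KO-labelled cells by limma (Dct 0.29, adjusted p = 0.0468, Tyrp1 0.38, adjusted p = 0.0177). Pmel and Met, also of the list, did not pass that test (0.12 and -0.03). The median genotype gap of the list with lysate was 0.10. The median effect of the list was lower in KO-labelled cells (0.60 against 0.69) while the median of its differences was 0.08, so the 2 summaries differ in sign.

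MHC class II genes fell in both genotypes. Of 11 tested 9 fell with lysate in wild type and 8 in KO-labelled cells (11.3% and 6.92% of all genes). The median effects were -0.48 and -0.44, and 4 differences were above 0 and 7 below. Ciita, the transactivator of these genes, was the exception at an unadjusted p under 0.05. It read 10.27 and 10.41 in wild type alone, 9.44 and 9.41 with lysate, 10.37 and 10.27 in KO-labelled alone and 9.90 and 9.79 with lysate (difference 0.43 ± 0.108, 95% interval 0.20 to 0.66, adjusted p = 0.278). The untreated libraries of both genotypes overlapped, and with lysate both KO-labelled libraries lay above both wild-type ones. Lad1, the deepest average fall, dropped by 1.15 in wild type and by 1.14 in KO-labelled cells (95% interval of the difference -0.26 to 0.28). Dio2, an enzyme that activates thyroid hormone, rose by 1.54 and 1.44 (-0.42 to 0.22).

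Of 79 tested cytosolic ribosomal proteins 67 had a difference below 0, 8 of them at an unadjusted p under 0.05 (2.9% of all genes), with a median of -0.09. That median was 0.04 without wild-type lysate replicate 2 and -0.21 without wild-type lysate replicate 1, so its sign rests on single libraries. With lysate 36 fell in KO-labelled cells and 10 in wild type (6.92% and 11.3% of all genes). The mean level of the list was 11.87 and 12.12 in the wild-type lysate libraries and 11.84 and 11.96 in the KO-labelled ones, which overlap. Rps24, of the small subunit, read 13.34 and 13.22 in wild type alone, 13.27 and 13.20 with lysate, 13.46 and 13.50 in KO-labelled alone and 12.97 and 13.04 with lysate. It fell by 0.47 ± 0.0674 in KO-labelled cells, with -0.04 ± 0.0674 in wild type (difference -0.44 ± 0.0953, adjusted p = 0.191). Rpl35, of the large subunit, had -0.46 ± 0.157. Of 44 translation factors 36 were below 0, 1 of them at an unadjusted p under 0.05 (median -0.11), a share near that of all genes, and of 22 genes of the m6A machinery 18 were, 3 at that level (median -0.04). Among the latter Igf2bp2, an m6A reader linked to mRNA stability, rose by 1.08 ± 0.113 and 0.67 ± 0.113 (difference -0.40 ± 0.159, adjusted p = 0.523).

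Lysosomal, metabolic and maturation lists had medians near 0. The median difference was -0.03 for 45 lysosome genes and for 13 cathepsins, -0.07 for 28 NRF2 targets, -0.03 for 35 genes of glycolysis and hypoxia, 0.02 for 29 genes of lipid transport, 0.07 for 25 genes of cholesterol synthesis, 0.03 for 29 maturation genes and 0.07 for 33 genes of MHC class I and cross-presentation. None of their members passed the test of the difference.

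**Figure D5:**
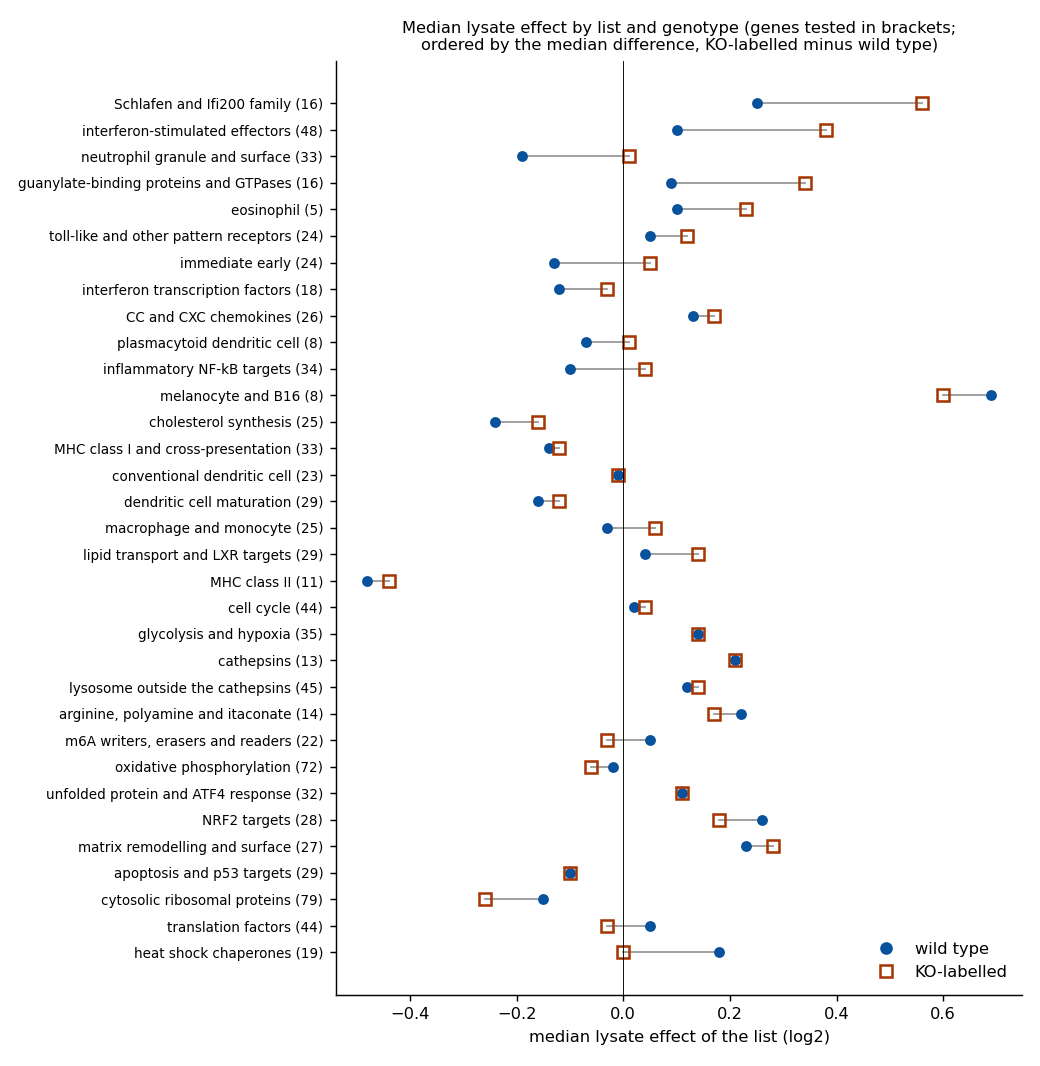
Median lysate effect (x axis, log2) of each gene list with at least 5 genes tested, in wild type (filled circles) and KO-labelled cells (open squares), ordered by the median difference of the members. The Schlafen and Ifi200 (0.27), interferon effector (0.25) and neutrophil (0.24) lists have the highest median differences, and heat shock chaperones (-0.12) and translation factors (-0.11) the lowest.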

How the data were processed

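The authors deposited 1 table of log2 values per gene for the 8 RNA-seq libraries, keyed by Entrez identifier. Its name and the submitters' processing notes, which list STAR, deepTools, DESeq2 and mm9, point to regularized log2 values, though no source states this. The sources used here do not give the counting tool, strand setting or gene filter. Symbols were taken from RefSeq, GRCm38.p6 (11744 of 11786 genes matched). Group means were fitted with limma 3.58.1 in R 4.3.3 (moderated variance with a mean trend, 4 residual and 9.33 prior degrees of freedom, two-sided), after a filter that removed 1 gene whose largest group mean was under 4. The script was tested on simulated data. Named genes are those past adjusted p 0.05 for the difference, the 10 highest and 10 lowest at an unadjusted p under 0.01, up to 4 members per list with the smallest p, the 10 with the largest average effect and Ythdf1. Members and gene lists were chosen with earlier results of these data known. Other filters, scalings, variance models, a replicate block and left-out libraries were tried. Depth is unknown because no counts were used.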

Additional observations from a re-analysis of the deposited data

Results flagged for a closer look

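For 13 genes the test of the difference itself found unlike lysate effects in the 2 genotypes, given as KO-labelled minus wild type on the log2 scale. Of the interferon genes these were Irf7 (0.68), Slfn4 (0.64) and Siglec1 (0.71). Of complement, the acute phase and lipoproteins they were C3 (0.67), Cfb (0.61), Hp (0.76) and Apoa1 (0.99). The value of Apoa1 is set by the floor of the scale, where 6 of its 8 libraries stand, and is no measure of size. Of monocyte and neutrophil surface genes they were Ly6c1 (0.73), Ly6c2 (0.68), Ly6i (0.80) and Trem1 (0.67). The heat shock genes were Hspa1a (1.05) and Hspa1b (1.13).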

How the results depend on the processing

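The 13 calls for the difference became 21 at an adjusted p of 0.1, 8 with a filter at 6, 1 without the mean-variance trend, 94 with GC and length trends removed, and 0 to 32 on leaving out 1 library. Same-numbered libraries did not deviate together in every pair of groups (correlations from -0.611 to 0.259), so the numbers were not taken to pair them. With a replicate block the count was 1, and with the block plus removal of GC and length trends 56. With the numbers of the untreated KO-labelled libraries crossed, a block chosen after seeing the data, the counts were 54 for the difference, 2919 for lysate in KO-labelled cells and 2638 for genotype with lysate. Lysate calls in wild type ranged from 1031 to 3152 over left-out libraries, and those in KO-labelled cells from 564 to 2275, with 2915 after removal of GC and length trends. Genotype calls without lysate ranged from 1174 to 1865 over left-out libraries, with 3088 after that removal and 2895 with the block as well. Genotype calls with lysate ranged from 193 to 2057, with 2427 at an adjusted p of 0.1, 2555 after the removal and 2300 with the block as well. Of 1125 values of named genes under 18 alternatives, 933 kept direction and side of the threshold, 79 newly passed, 106 no longer passed and 7 reversed. The reversals were those of Lad1, with -0.04 after removal of GC and length trends with or without the block and -0.10 to 0.12 over left-out libraries, and of Dio2, with -0.25 to 0.05 over left-out libraries. The causes were not tested.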
